A study of Mus musculus with 53 samples.

Results

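The genes described here encode the proteins of the mitochondrial ribosome, taken as every row of the deposited expression table whose symbol is Mrpl or Mrps followed by a number and at most 1 letter. The rule used names only and found 76 of the table's 34306 genes. Messenger RNA was measured in adult mouse hearts in a pair of fractions, total cytoplasmic RNA (input) and RNA recovered by translating ribosome affinity purification (TRAP). In TRAP, Cre recombinase turns on a tagged protein of the cytosolic ribosome, and the tag serves to pull ribosomes down with the RNA they carry. In CAG hearts every lineage bears the tag, and in Tie2 hearts, through a Cre made in endothelial cells, that lineage does, as the labels of the first of 2 deposits describe these lines. That deposit names a mixed 129/C57BL background, and for the mice behind the 12 libraries used here none is named.

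CAG hearts gave 2 input and 2 TRAP libraries after a sham operation and as many after aortic banding. Mice without surgery gave 1 input and 1 TRAP library from CAG hearts and the same from Tie2 hearts. Banding tied the ascending aorta against a needle, which loads the left ventricle with pressure, and sham mice had the same operation without the ligature. The surgery protocol names male mice, RNA was pooled before library preparation, and the time under the band is not stated in the sources. The labels do not tie replicate libraries to different animals, so p-values measure only a spread between libraries that may be technical.

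Mitochondria keep a small genome of their own that codes for a few core subunits of the respiratory chain, and they translate it on a ribosome built of RNA transcribed inside the organelle and of proteins made in the cytosol and imported. Some of these proteins descend from those of bacterial ribosomes, and others have no bacterial counterpart. The heart depends on the respiratory chain for its energy, and inherited faults in several of these genes cause cardiomyopathy or other mitochondrial disease. The messenger RNAs measured here are themselves read by cytosolic ribosomes, the ones that TRAP recovers.

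By role, 49 of the 76 genes belong to the large subunit, 30 with a bacterial counterpart and 19 without, and 26 to the small subunit, 16 with a bacterial counterpart and 10 without. Mrps30 and Mrps18a carry small-subunit names and were counted with the large subunit, in which their proteins sit. The remaining gene, Mrps36, also called Kgd4, is known as an adapter of the 2-oxoglutarate dehydrogenase complex of the citric acid cycle.

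The libraries held 26568988 to 94878619 reads summed over genes. Mrp genes took 0.731 and 0.781% of the reads in sham input and 0.749 and 0.745% in band input, against 1.16% in both sham TRAP libraries and 1.21 and 1.19% in band TRAP. Transcripts of the mitochondrial genome took 13.7 to 15.9% of the reads in the 5 CAG input libraries, 3.17% in Tie2 input and at most 0.293% in every TRAP library, and this difference in makeup enters every TRAP to input ratio of values scaled to a library's reads. The fewest reads behind any tested Mrp gene were 144 to 438, depending on the library, so counting error was small beside the differences described. The 2 band TRAP libraries differed more than other replicates, with a median absolute log2 difference of 0.17 over Mrp genes, against 0.07 in sham input, 0.08 in sham TRAP and 0.08 in band input.

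Short motifs of 3 kinds were looked for in the promoters, because the factors that bind them, NRF1, ETS-family proteins such as GABP, and YY1, are known regulators of nuclear genes for mitochondrial proteins. RefSeq's GRCm38.p6 promoter table, with windows of 300 bases (250 before the transcript start and 50 after), matched 67 of the 76 genes in 73 windows. The 8 letters CCGGAAGT of an ETS site, on either strand, were in 12 of these windows, 16.4%, against 3.89% of all 32851 windows in the table. GCATGCGC, the core of an NRF1 site, was in 8 windows, 10.96% against 2.71%, and AAGATGGC, the core of a YY1 site, in 12, 16.4% against 2.75%. In all, 29 windows, 39.7%, held at least 1 of the 3, against 8.83% of all windows, and the 73 windows of Mrp genes were richer in G and C than all windows (median 58.3 against 52.7%). The share was 30.3% for genes of the cytosolic ribosome and 32.4% for nuclear genes of oxidative phosphorylation, and no difference between these sets was tested. A match is a description of the letters, not evidence of a bound site.

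The ETS letters are shown in capitals for 4 genes whose values follow, Mrpl18, Mrpl3 (named in inherited cardiomyopathy), Mrpl43 and Mrps18c, with coordinates on GRCm38.p6, all read 5′ to 3′ on the gene's strand.
Mrpl18, chr17:12916282-12916341: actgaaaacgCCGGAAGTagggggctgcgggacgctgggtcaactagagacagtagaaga
Mrpl3, chr9:105053208-105053267: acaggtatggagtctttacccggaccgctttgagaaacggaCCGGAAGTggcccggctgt
Mrpl43, chr19:45006443-45006502: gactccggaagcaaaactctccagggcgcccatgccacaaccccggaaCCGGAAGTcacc
Mrps18c, chr5:100798586-100798645: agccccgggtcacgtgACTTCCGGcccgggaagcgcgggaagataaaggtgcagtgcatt

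In Mrps18c the letters lie on the opposite strand. The ETS letters began 12 bases before the transcript start in Mrpl43, 19 in Mrpl3, 157 in Mrps18c and 240 in Mrpl18, and of the 12 sites in Mrp windows 6 began within 20 bases of the start and the others farther upstream. The positions of ETS letters over all windows were not counted. The NRF1 letters are shown for Mrpl10 of the ribosome's stalk, Mrpl22 of the exit tunnel and Mrpl33. In Mrpl22 and Mrpl33 these letters lie on the opposite strand. They are nearly a palindrome, and the 2 strands can match in overlapping places.
Mrpl10, chr11:97041432-97041491: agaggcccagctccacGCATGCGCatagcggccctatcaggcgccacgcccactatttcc
Mrpl22, chr11:58171604-58171663: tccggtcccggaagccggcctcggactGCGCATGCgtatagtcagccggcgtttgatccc
Mrpl33, chr5:31613891-31613950: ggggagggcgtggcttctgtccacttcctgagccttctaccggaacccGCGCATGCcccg

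The YY1 letters were also counted by position. Of the 12 windows that held them, 8 had them on the gene's strand within the 50 bases after the start (66.7%), against 284 of 903 windows among all genes (31.4%). These letters contain ATG, which also spells a start codon. Whether the matches were YY1 sites or places where translation starts was not tested. Short stretches are shown for Mrps7, Mrpl42, Mrps18a and Mrps27, in which the letters lay 11 to 27 bases past the start.
Mrps7, chr11:115604150-115604173: cagcggccAAGATGGCtgcccccg
Mrpl42, chr10:95501907-95501930: attgaagcAAGATGGCgagcgcgc
Mrps18a, chr17:46111007-46111030: tgcgttccAAGATGGCggccctca
Mrps27, chr13:99344792-99344815: tgcgctccAAGATGGCggctccca

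Levels were compared between genes per length, in RPKM (reads per kilobase of the 1 transcript listed for a gene, scaled to the reads of the library). The listed transcripts of Mrp genes ran from 412 bases (Mrpl52) to 6073 (Mrps25), with a median of 1300.5, and a level between genes depends on that listed length. The median Mrp gene stood at 37.9 and 39.3 RPKM in the sham input libraries, where the median of all tested genes was 4.70 and 4.62. The highest were Mrpl42 and Mrpl52, large-subunit proteins without a bacterial counterpart, and Mrps21, a small-subunit protein with one. Mrpl42 was read at 849 and 927 RPKM in the sham input libraries, Mrpl52 at 764 and 807, and Mrps21 at 675 and 794. Mrpl42 stood above the other two in both libraries, and the ranges of Mrpl52 and Mrps21 overlapped.

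That order was not the one in TRAP RNA. In sham TRAP, Mrpl52 was read at 1485 and 1500 RPKM, Mrps21 at 1292 and 1145, and Mrpl42 at 1031 and 946, so Mrpl42 came last of the 3 in both libraries. At the other end, Mrpl19 was read at 3.09 and 2.93 RPKM in the sham input libraries and Mrpl1, whose bacterial counterpart forms the mobile L1 stalk, at 2.67 and 2.73. Mrpl53 had 0 to 3 reads in each library and 0 in 6 of them, and a 0 is compatible with as many as 3 reads at 95% confidence, counting error alone. It was the only Mrp gene left out of the tests. On GRCm38.p6 it overlaps Ccdc142, itself listed at 0.0155 to 0.454 RPKM, and whether the overlap bears on its reads was not tested. The other 75 genes reached 1 RPKM in every library, except Mrpl1 at 0.851 in band TRAP library 2.

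**Figure D1:**
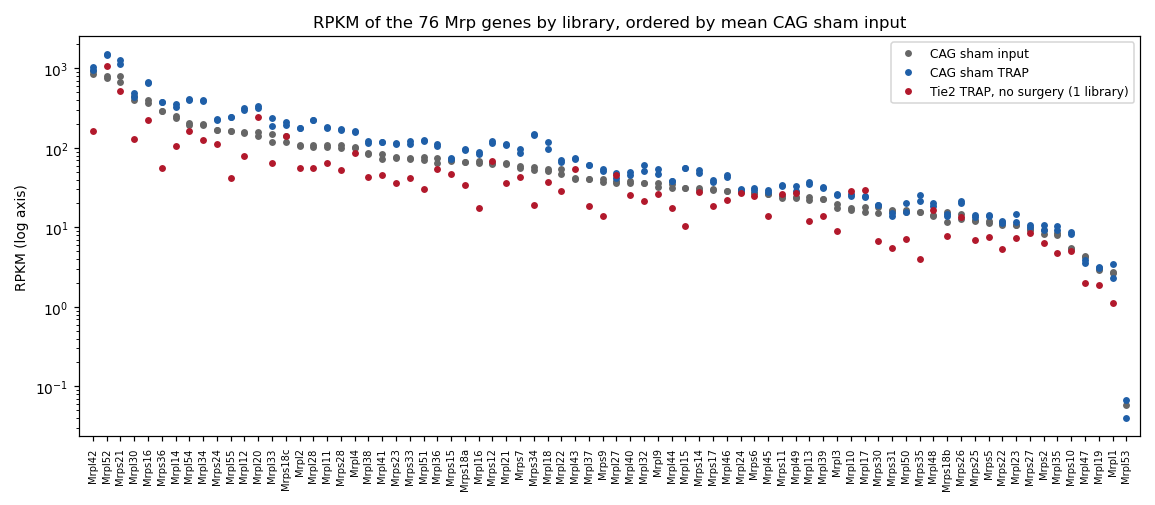
RPKM (log axis) of the 76 Mrp genes, ordered by their mean in CAG sham input; each point is 1 library of CAG sham input (grey), CAG sham TRAP (blue) or Tie2 TRAP (red), and values of 0 are not drawn. Most blue points lie above the grey points of the same gene and most red points below them, from Mrpl42 at 849 and 927 RPKM in sham input down to Mrpl53.

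The summed RPKM of large-subunit genes was 2.01 to 2.41 times that of small-subunit genes across the 12 libraries. These sums, 3229 to 8051 RPKM for the large subunit, are carried by a few abundant genes such as Mrpl42, Mrpl52 and Mrps21. The median large-subunit gene stood at 1.01 (Tie2 input) to 1.88 (band TRAP library 1) times the median small-subunit gene, so by medians the balance varied more.

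TRAP was compared with input to ask which transcripts were more or less represented on tagged ribosomes than in the cytoplasm of CAG hearts. In bulk RNA, fewer cells of a type and less RNA per cell cannot be told apart, nor ribosome binding from unequal recovery of cell types. After sham surgery the calls among the 75 tested Mrp genes were 49 higher in TRAP and 0 lower (limma on log2(RPKM + 1), adjusted p under 0.05), where 15.1% of all 11654 tested genes were called higher and 24.5% lower. The median over the 75 genes was 0.52 on the log2 scale, 1.43-fold, against -0.09 for all tested genes. After banding 52 were called higher and 0 lower, against 16.6% and 26% of all tested genes, with a median of 0.49. The differences were modest in size: 5 genes passed 2-fold after sham and 1 after banding.

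Each of the 4 roles held genes called higher. In sham hearts 20 of 30 large-subunit genes with a bacterial counterpart were called higher, 11 of 18 without one, 12 of 16 small-subunit genes with a counterpart and 5 of 10 without. In banded hearts the counts were 23, 13, 12 and 4 in the same order. No difference between roles was tested.

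Among large-subunit genes with a bacterial counterpart, Mrpl20, which binds ribosomal RNA early in assembly in bacteria, changed most after sham. It was read at 143 and 157 RPKM in the sham input libraries and 317 and 334 in sham TRAP, a log2 fold change of 1.12 (SE 0.08; limma, adjusted p = 0.000349), and at 180 and 178 against 361 and 349 in banded hearts (0.98). In both operations each TRAP library stood far above each input library. Mrpl28 (1.07 after sham), Mrpl34 (1.00) and Mrpl18 (0.99), also core proteins with bacterial counterparts, rose by similar amounts. Mrpl33 was read at 120 and 149 RPKM in the sham input libraries and 236 and 191 in sham TRAP, and at 145 and 133 against 295 and 263 in banded hearts. Its log2 fold changes were 0.67 (adjusted p = 0.0116) and 1.00 (adjusted p = 0.00236, both limma), and the sham call was lost without sham input library 1 or sham TRAP library 1 (adjusted p = 0.0816 and 0.0782).

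The stalk of the large subunit recruits translation factors, and the 3 genes for its proteins all rose. Mrpl12, the protein repeated along the stalk, stood at 156 and 156 RPKM in the sham input libraries and 295 and 319 in sham TRAP, a log2 fold change of 0.97 (SE 0.08; limma, adjusted p = 0.000481), and at 0.87 after banding. Mrpl11, at the stalk base, rose by 0.77 after sham and 0.95 after banding. Mrpl10, which anchors Mrpl12, went from 16.3 and 17.5 RPKM to 26.4 and 24.9 in sham hearts (0.57; limma, adjusted p = 0.00603) and from 14.5 and 15.3 to 28.7 and 24.1 in banded ones (0.78). Without sham input library 1 the sham call for Mrpl10 was lost (limma, adjusted p = 0.055).

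Mrpl4, Mrpl22, Mrpl23, Mrpl24 and Mrpl45 stand at or near the exit tunnel, through which the new chain leaves. Mrpl4, named here after its values were seen, was called after both operations, from 102 and 99.8 RPKM in sham input to 161 and 158 in sham TRAP (0.66; limma, adjusted p = 0.00213) and by 0.48 after banding. Mrpl22, which lines the tunnel, went from 46.7 and 53.9 RPKM to 65.9 and 69.7 in sham hearts (0.43; limma, adjusted p = 0.031), and this call was lost when any 1 of the 4 sham libraries was left out (adjusted p up to 0.185). Mrpl24 was called after banding, at 25.2 and 23.7 RPKM in input against 31.5 and 29.5 in TRAP (0.31; limma, adjusted p = 0.0208), and not after sham (0.08, adjusted p = 0.47), and the call was lost without band input library 1 or 2 (adjusted p = 0.0578 and 0.0988). Mrpl45, the part of the large subunit that faces the inner membrane, was called after neither, at 26.0 and 26.1 RPKM in the sham input libraries and 28.2 and 29.6 in sham TRAP (0.15; limma, adjusted p = 0.284). Mrpl23 was read at only 10.6 and 10.8 RPKM in the sham input libraries, while Mrpl23-ps1, listed as a separate copy, was read at 220 and 246, so reads of this gene may have been counted at the copy. The log2 fold changes of Mrpl23 were 0.27 after sham and 0.75 after banding (limma, adjusted p = 0.135 and 0.00411). Together they took 135 and 150 of every 1000000 reads in sham input and 218 and 222 in sham TRAP.

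Of the large-subunit genes without a bacterial counterpart, Mrpl54 and Mrpl52 rose most in both operations. Mrpl54 was read at 194 and 209 RPKM in the sham input libraries and 405 and 416 in sham TRAP (log2 fold change 1.02, SE 0.08; limma, adjusted p = 0.000418), and rose by 1.00 after banding. Mrpl52 rose by 0.93 and 0.92, and Mrpl43 by 0.83 and 0.70. Mrpl44, a protein related to ribonuclease III and named in inherited cardiomyopathy, was called after neither operation, at 31.7 and 35.6 RPKM in the sham input libraries and 38.9 and 38.9 in sham TRAP (0.20; limma, adjusted p = 0.13).

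In the small subunit, Mrps12, whose protein lines the decoding centre, went from 62.1 and 65.3 RPKM in sham input to 114 and 120 in sham TRAP (0.87, SE 0.08; limma, adjusted p = 0.000741) and rose by 0.85 after banding. Mrps16 rose by 0.80 and 0.86, Mrps7 by 0.66 and 0.79 and Mrps14 by 0.72 and 0.60, all 3 genes of inherited mitochondrial disease. Others of that kind differed little: Mrps22 stood at 10.9 and 11.6 RPKM in the sham input libraries and 12.04 and 11.2 in sham TRAP, and its log2 fold changes were 0.05 and 0.21 (limma, adjusted p = 0.773 and 0.179). Mrps2 stood at 8.29 and 9.15 RPKM in the sham input libraries and 9.33 and 10.7 in sham TRAP (0.18; limma, adjusted p = 0.21). Mrpl3, of the large subunit and named in cardiomyopathy, was called after banding (0.86; limma, adjusted p = 0.00503) and missed the threshold after sham (0.46, adjusted p = 0.051).

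Mrps21 had the largest ratio after banding. It was read at 676 and 671 RPKM in band input and 1621 and 1709 in band TRAP, a log2 fold change of 1.30 (SE 0.11; limma, adjusted p = 0.000369), against 0.73 after sham. Mrps18c (0.95) and Mrps33 (0.92) followed among small-subunit genes. The change of ratio from sham to band was 0.57 for Mrps21 (limma, adjusted p = 0.867), so a difference between the operations was not shown.

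Mrps34, a small-subunit protein without a bacterial counterpart and a gene of inherited mitochondrial disease, had the largest ratio after sham and the widest spread. It was read at 53.4 and 57.0 RPKM in the sham input libraries and 148 and 147 in sham TRAP, a log2 fold change of 1.404 (SE 0.29; limma, adjusted p = 0.00934). In banded hearts it was read at 49.2 and 53.9 RPKM in input and at 60.1 and 124 in TRAP, so the TRAP libraries lay far apart and the fold change of 0.74 was not called (adjusted p = 0.0776). Leaving out sham input library 1 ended the sham call (limma, adjusted p = 0.0614), as did leaving out either sham TRAP library (0.0533 and 0.0513).

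Of the genes called higher, 45 were called after both operations, which is 91.8% of the sham list and 86.5% of the band list. The same overlap over all tested genes was not counted, and both comparisons drew on 1 fit with a shared spread. These shares are therefore not read as particular to Mrp genes. Mrpl49, Mrps17, Mrps34 and Mrps36 were called after sham alone, Mrpl3, Mrpl23, Mrpl24, Mrpl40, Mrpl42, Mrpl48 and Mrps5 after banding alone, and 19 after neither. The lowest ratios were those of Mrps31 (-0.17) and Mrpl47 (-0.15) after sham and of Mrpl1 (-0.46) and Mrpl47 (-0.27) after banding, none of them called. Without band TRAP library 1, Mrpl1, Mrpl47 and Mrpl50 were called lower after banding, beside 34.5% of all tested genes. On GRCm38.p6, 23 of the tested Mrp genes overlap another gene, whose reads cannot be told apart in a library without strand, and 13 of these against 36 of the 52 others were called after sham. The sham count was 29 without sham input library 1, where 5.75% of all tested genes were called higher, and the band count was 32 when only the band libraries entered the fit, where 8.03% were.

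**Figure D2:**
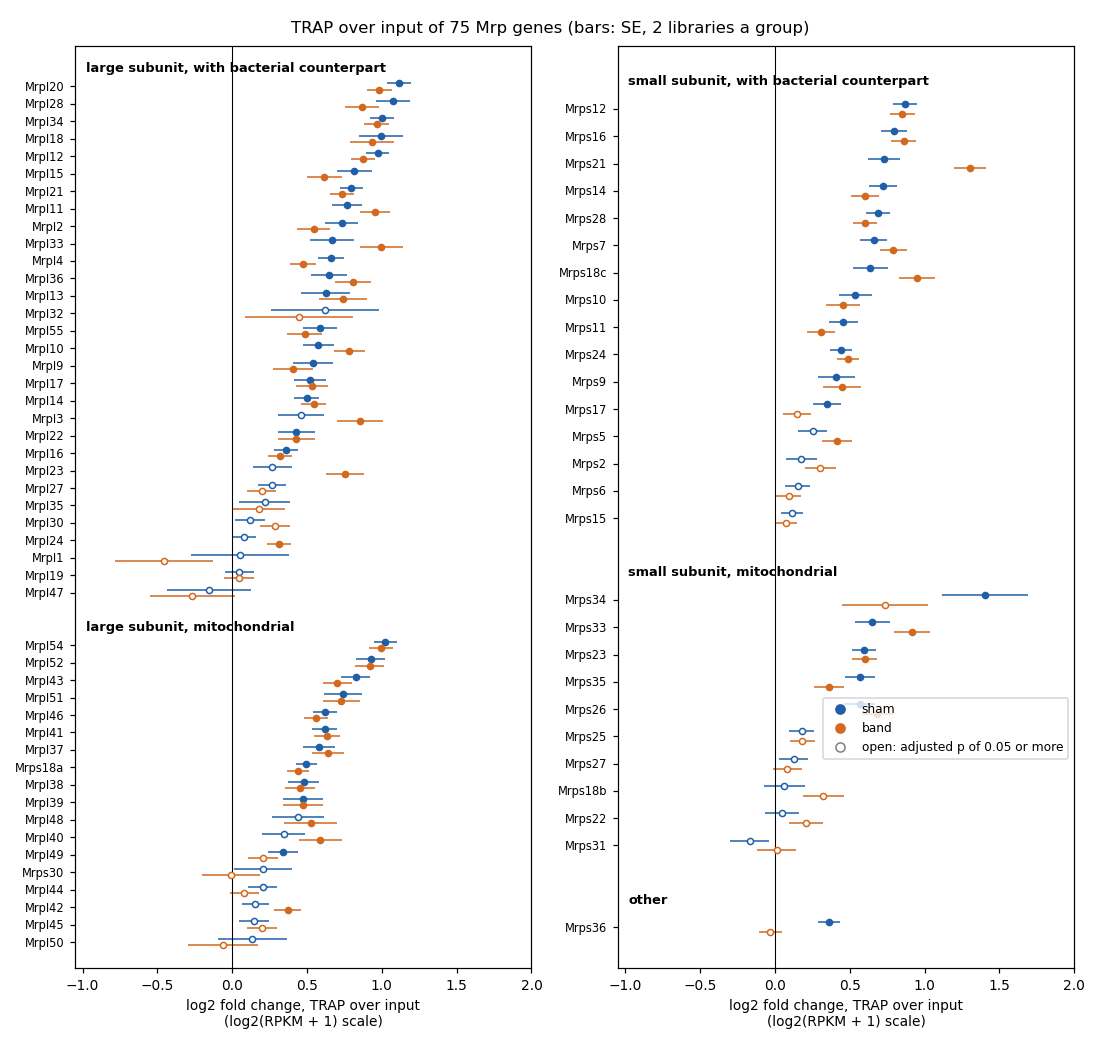
Log2 fold change of TRAP over input (log2(RPKM + 1) scale) for the 75 tested Mrp genes by role, after sham (blue) and band (orange), with the SE of the limma fit as bars and 2 libraries a group; filled points have an adjusted p under 0.05. Most points lie between 0 and 1, with Mrps34 after sham (1.404) and Mrps21 after banding (1.30) farthest to the right.

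Because mitochondrially encoded reads fill up to 15.9% of input and almost nothing of TRAP, the ratios of all nuclear genes were also taken after scaling each library to its other reads, an alternative added after seeing the data. The median of all tested genes then moved from -0.09 to -0.26 after sham, and that of Mrp genes from 0.52 to 0.30. On this scale 37 Mrp genes were called higher and 1 lower (Mrps31) after sham, against 7.75% of all tested genes called higher and 38.5% lower, and 35 higher and 1 lower (Mrps36) after banding, against 9.21 and 40.0%. The median of Mrp genes lay above that of all tested genes by 0.61 as deposited and 0.56 without mitochondrial reads. This scaling multiplies all genes of a library by the same factor. The gap could therefore hardly change, and its likeness under both scalings is not a check.

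The ratio also depended on transcript length. Mrp transcripts are short: their median length was 1316 bases among the tested genes, against 2604 for all of them, and short transcripts had higher TRAP to input ratios in CAG hearts. Each Mrp gene was therefore set beside the other tested genes with a length within 10% of its own. After sham 64 of 75 lay above the median of their like-length genes, by a median of 0.43 on the log2 scale, and after banding 65, by 0.44. In the interquartile range of Mrp lengths, 919.5 to 2385 bases, 24.3% of 3557 other genes were called higher after sham and 25.7% after banding. When the length trend was removed from each library, 36 Mrp genes were called higher after sham (49 without that step), beside 10.4% of all tested genes, and 38 higher and 1 lower (Mrps36) after banding, beside 12.9% higher and 21.5% lower.

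Length also ordered the Mrp genes among themselves, weakly. Those under 1000 bases had a median log2 ratio of 0.63 after sham (22 genes), and those of 2000 bases or more 0.47 (24 genes). Across the 75 genes, which share libraries and are not independent replicates, the correlation of the ratio with log2 length was -0.27 after sham and -0.32 after banding.

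**Figure D3:**
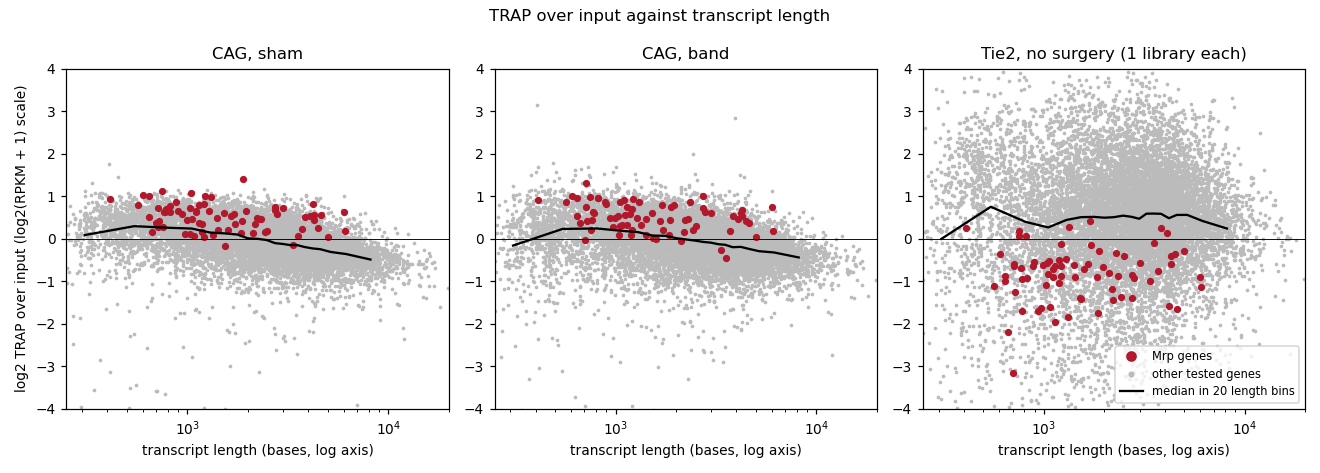
Log2 ratio of TRAP over input (log2(RPKM + 1) scale) against the length of the listed transcript (bases, log axis) for Mrp genes (red), other tested genes (grey) and the median in 20 length bins (black), in CAG sham, CAG band and Tie2 hearts; 256, 265 and 291 genes, none of them Mrp genes, lie outside the axes. Most red points lie above the black line in both CAG panels and all lie below the value of like-length genes in the Tie2 panel.

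Genes of other mitochondrial systems were set beside them. Nuclear genes of oxidative phosphorylation had a median of 0.66 after sham with 64 of 83 called higher, and the Tomm and Timm import genes 0.54 with 14 of 20 higher and 1 lower (Tomm34). Cytosolic ribosomal protein genes had a median of 0.42, with 37 of 83 higher and 1 lower. Above like-length genes these medians were 0.44, 0.46 and 0.21, beside 0.43 for Mrp genes. The position of Mrp genes was therefore close to that of the respiratory chain and import genes, and no difference between the sets was tested.

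Other genes of mitochondrial translation were read against the same 15.1% of all tested genes called higher and 24.5% lower after sham. Of 7 tested mitoribosomal proteins listed under other symbols, 5 were called higher after each operation, Mrp63, Ict1, Gadd45gip1, Chchd1 and Aurkaip1, of which Gadd45gip1 lost its sham call without any 1 of the 4 sham libraries (adjusted p up to 0.0991) and its band call without any 1 of 3 band libraries, band TRAP library 1 being the exception (up to 0.166). Chchd1 lost its sham call without sham input library 1 or sham TRAP library 1 (limma, adjusted p = 0.0598 and 0.0555). Dap3 and Ptcd3 were not called (0.09 and -0.37 after sham; limma, adjusted p = 0.434 and 0.184). Of 9 translation factors, 1 was called higher, the elongation factor Tsfm, from 36.2 and 38.0 RPKM in sham input to 52.9 and 54.5 in sham TRAP (0.52; limma, adjusted p = 0.0029). Its partner Tufm, which carries aminoacyl-tRNA to the ribosome, was at 43.1 and 45.6 RPKM in the sham input libraries and 39.9 and 42.0 in sham TRAP (-0.11, adjusted p = 0.303, limma). Of 21 tested assembly and rRNA modification genes, 6 were higher and 1 lower after sham, led by the assembly factor Rbfa (1.02), with Mterfd2 the lower one (-0.26), a call lost without any 1 of the 4 sham libraries (adjusted p up to 0.224). Of 14 mitochondrial tRNA synthetases 3 were higher, and of 4 transcription genes Tfb2m was higher (0.83) and Lrpprc, which stabilises mitochondrial messenger RNA, lower (-0.59). The transcripts of these lists are longer than those of Mrp genes, with medians of 2321 to 4227.5 bases, and no difference between the lists and Mrp genes was tested.

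The RNA of the mitochondrial ribosome went the other way. Its RNAs, which are made and kept inside the organelle, were read at 2556 and 2433 RPKM (mt-Rnr1) and 2936 and 3557 RPKM (mt-Rnr2) in sham input, and at 14.3 and 26.0 and at 23.8 and 36.4 in sham TRAP. Libraries were selected for poly(A), so these values are not the RNAs' full amounts.

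Band was compared with sham to ask whether pressure load moved these genes. In input RNA 0 of 75 Mrp genes were called (limma), where 2.44% of all tested genes were higher and 1.65% lower. The median over Mrp genes was -0.03, 3 had an unadjusted p under 0.05, and limma voom on recovered reads also called 0. The largest differences were those of Mrpl39 (-0.30) and Mrpl43 (0.27). For all 75 genes the 95% interval lay within 1 of zero on the log2 scale, and for 63 within 0.5. A 2-fold change in either direction on the log2(RPKM + 1) scale was thus outside the interval of each. The shares of all tested genes with such p-values or intervals are not given, so these counts are not read as particular to Mrp genes.

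In TRAP RNA 1 Mrp gene was called, Mrps36, which was lower, against 2.21% of all tested genes called higher and 1.56% lower. The median was 0.01, 13 genes had an unadjusted p under 0.05, and the intervals of 73 genes lay within 1 of zero and those of 52 within 0.5. The like counts over all tested genes are not given, here or for the interaction below. These numbers are therefore not read as particular to Mrp genes. Mrps34 (-0.77) and Mrps18b (0.47) had the largest differences and were not called. For the interaction, the difference of the TRAP to input ratio between band and sham, 0 Mrp genes and 0% of all tested genes were called (limma; limma voom called 0 Mrp genes too), and 3 Mrp genes had an unadjusted p under 0.05. The counts in TRAP RNA rested on single libraries: they were 10 without band TRAP library 1 and 17 without band TRAP library 2, where 14.3 and 16.9% of all tested genes were called, and 0 without either sham TRAP library, where 0.309 and 0.283% were.

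The other genes of mitochondrial translation were nearly as still. Of the 4 transcription genes, Tfb2m, which helps the mitochondrial RNA polymerase to start, was lower in band input, at 9.80 and 9.66 RPKM against 12.6 and 13.1 in sham input (-0.37; limma, adjusted p = 0.0462), a call lost without any 1 of these 4 libraries (adjusted p up to 0.319). Of the 14 tRNA synthetases, Ears2, for glutamate, was higher in band TRAP, at 3.61 and 3.49 RPKM against 2.40 and 2.07 (0.50; limma, adjusted p = 0.0353), a call lost without sham TRAP library 1 or 2 (adjusted p = 0.131 and 0.24). None of the tested translation factors, assembly genes or mitoribosomal proteins under other symbols was called in either fraction (limma).

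Mrps36 fell from 380 and 375 RPKM in sham TRAP to 251 and 267 in band TRAP, a log2 fold change of -0.54 (SE 0.08; limma, adjusted p = 0.0141). Both band libraries lay below both sham libraries, and the call was lost when sham TRAP library 1 or 2 was dropped (adjusted p = 0.142 and 0.143) and when only the groups compared were fitted (0.18). In input it was read at 294 and 294 RPKM after sham and 257 and 272 after banding (-0.15; limma, adjusted p = 0.337).

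The table also lists copies of this gene. Mrps36-ps1 was read at 379 and 343 RPKM in sham TRAP and 457 and 451 in band TRAP (0.33; limma, adjusted p = 0.157), and Mrps36-ps2 at 52.1 and 61.8 against 24.7 and 33.0 (-0.97; limma, adjusted p = 0.0197, and 0.0905 and 0.162 without sham TRAP library 1 or 2). Mrps36-ps1 thus stood higher in band TRAP where Mrps36 and Mrps36-ps2 stood lower. Summed over the 3 entries, 520 and 496 of every 1000000 reads fell on them in sham TRAP and 470 and 479 in band TRAP, a ratio of 0.933 between the means, against 0.685 for Mrps36 alone. The sources do not state how reads shared by the copies were assigned, so the fall of Mrps36 and a shift of reads between copies cannot be told apart.

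**Figure D4:**
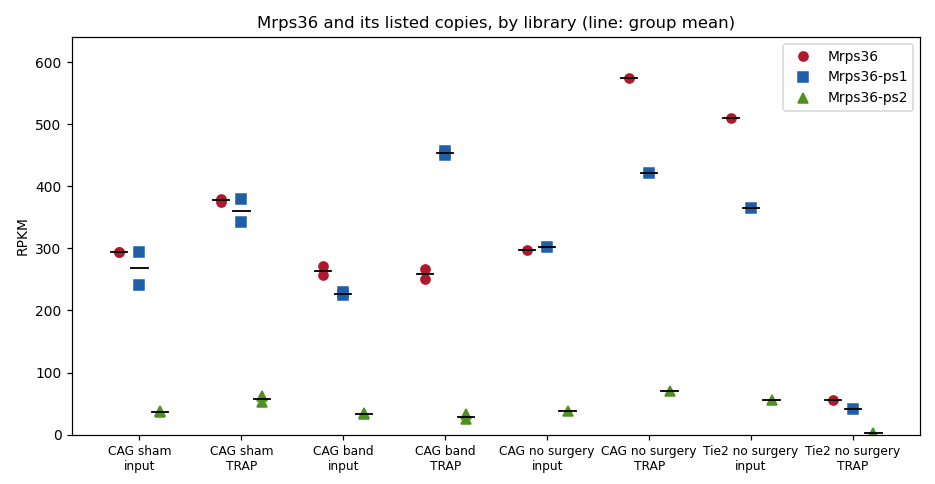
RPKM of Mrps36 (red circles), Mrps36-ps1 (blue squares) and Mrps36-ps2 (green triangles) in each of the 12 libraries, with a black line at each group's mean. In band TRAP Mrps36 lies at 251 and 267 RPKM and Mrps36-ps1 at 457 and 451, while in sham TRAP they lie close together, and all 3 are at their lowest in Tie2 TRAP.

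Hearts without surgery gave 1 library a side, so their ratios are given without a test. In the CAG pair 55 of 75 Mrp genes were higher in TRAP than in input, where 31.5% of all tested genes were, with a median of 0.34. The largest ratios were those of Mrps34 (1.73; 36.1 RPKM in input and 122 in TRAP), Mrpl54 (1.19) and Mrpl34 (0.99), and the lowest those of Mrpl1 (-0.98), Mrpl50 (-0.92) and Mrps31 (-0.73). Mrps34, Mrpl54 and Mrpl34 were also among the 5 largest after sham, and 62 of the 75 genes lay above genes of like length, by a median of 0.40.

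In the Tie2 pair the sign was the opposite. Of the 75 Mrp genes 67 were lower in Tie2 TRAP than in Tie2 input, where 33.8% of all tested genes were. On the log2(RPKM + 1) scale 22 were lower by more than 2-fold, where 13.1% of all tested genes were. The median was -0.75, 1.69-fold lower, and the median Mrp gene stood at 27.5 RPKM in Tie2 TRAP and 43.5 in Tie2 input. Each of the 75 genes lay below the median of its like-length genes, by a median of 1.22 on the log2 scale. Of all 75 genes, 54 were higher in TRAP in all 5 CAG pairs, as were 20.7% of all tested genes, and 46 were higher in those and lower in the Tie2 pair, as were 9.16%. Large-subunit genes (median -0.74) and small-subunit genes (-0.77) had nearly the same ratio.

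The lowest ratios were those of Mrps36, at 511 RPKM in Tie2 input and 56.2 in Tie2 TRAP, 9.08-fold lower, Mrpl42, at 751 and 162, 4.63-fold lower, and Mrpl16, at 72.2 and 17.7, 4.07-fold lower. Mrps36 and its listed copies together took 603 of every 1000000 reads in Tie2 input and 66.4 in Tie2 TRAP, so for this gene the copies and the sum went the same way. Of the stalk genes, Mrpl12 went from 283 to 77.9 RPKM, 3.63-fold lower, while Mrpl10 went from 21.4 to 28.7 and was the highest of all Mrp genes (0.41). Mrpl24, at 22.6 and 27.4 RPKM, and Mrpl52, at 904 and 1075, were also higher in Tie2 TRAP (0.27 and 0.25). Leaving out Mrps36 (-3.16), the ratios within this one ribosome thus spread from -2.205 (Mrpl42) to 0.41.

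Mrpl42 and Mrpl52, the pair at the top of sham input, had ratios of opposite sign in these hearts. Both stand in the large subunit without a bacterial counterpart, and in Tie2 TRAP Mrpl52 was the highest Mrp gene at 1075 RPKM. Its place above Mrpl42 was not particular to that library. Mrpl52 also led Mrpl42 in Tie2 input (904 against 751 RPKM), CAG TRAP without surgery (1759 against 1240) and both sham TRAP libraries. In CAG input without surgery it stood below Mrpl42 (895 against 992).

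Other gene sets marked the scale of this difference. Nuclear genes of oxidative phosphorylation were 5.08-fold lower at the median in Tie2 TRAP than in Tie2 input, import genes 1.30-fold lower and cytosolic ribosomal protein genes 2.89-fold higher. Mrp genes lay between the respiratory chain and the import genes. Against CAG TRAP without surgery, 68 of 75 Mrp genes were lower in Tie2 TRAP, where 26.4% of all tested genes were. On the log2(RPKM + 1) scale 36 were lower by more than 2-fold, where 11.3% of all tested genes were.

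Cell type markers moved with this ratio. The summed RPKM of 5 cardiomyocyte markers (Tnnt2, Myh6, Actc1, Myl2 and Tnni3) was 62199 in Tie2 input and 2963 in Tie2 TRAP, and 44691 to 61643 in the 10 CAG libraries. That of 5 endothelial markers (Cdh5, Pecam1, Kdr, Tek and Cav1) was 73.6 and 1130, and 48.6 to 74.5 in CAG libraries. That of 5 fibroblast markers (Col1a1, Dcn, Pdgfra, Lum and Mmp2) was 181 and 520, that of 4 macrophage markers (Csf1r, Cd68, Lyz2 and Emr1) 105 and 906, that of 3 smooth muscle markers (Myh11, Acta2 and Tagln) 262 and 123, and that of 3 erythroid markers (Hbb-b1, Hba-a1 and Alas2) 2235 and 488. None of these markers was at 0 in any library, and their part in the Mrp ratios was not tested. In CAG hearts the cardiomyocyte sum was 45071 and 44691 in sham input and 53613 and 50790 in sham TRAP, but the markers did not move alike: Tnni3 was called higher in sham TRAP (0.64; limma, adjusted p = 0.00367) and Myh6 lower, at 3623 and 3427 RPKM against 1796 and 1721 (-1.003; limma, adjusted p = 0.00218). The endothelial sum was 71.1 and 67.2 in sham input against 70.6 and 74.5 in sham TRAP, and none of its markers was called (limma). The fibroblast sum was 212 and 210 in sham input against 96.7 and 101 in sham TRAP, and the macrophage sum 115 and 116 against 56.8 and 57.8. The erythroid sum was 2075 and 2040 against 164 and 169, and the smooth muscle sum 118 and 123 against 115 and 131. That last sum is mostly Acta2, which was not called (0.10; limma, adjusted p = 0.606). Myh11 and Tagln were called lower in sham TRAP (-0.76 and -0.65; limma, adjusted p = 0.00361 and 0.0434). The part of all these markers in the ratios was not tested there either.

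**Figure D5:**
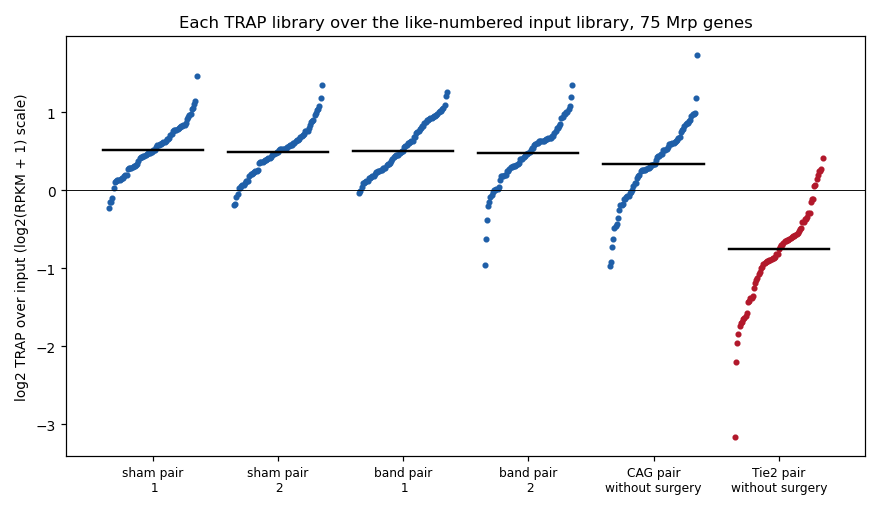
Log2 ratio (log2(RPKM + 1) scale) of each TRAP library over the input library of the same condition and number, for the 75 tested Mrp genes sorted within each pair; black lines are medians, CAG pairs are blue and the Tie2 pair red, and like numbers of sham and band libraries do not mark shared mice. Medians are 0.47 to 0.51 in the sham and band pairs, 0.34 in the CAG pair without surgery and -0.75 in the Tie2 pair.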

How the data were processed

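Messenger RNA of mouse hearts was sequenced per the labels' protocols from poly(A) RNA primed with random hexamers, in libraries that do not mark strand. CASAVA 1.8.2, TopHat 1.4, HTSeq 0.5.3 and build NCBIM37 are named in the submitters' processing notes, with no settings. The authors deposited RPKM values, 1 transcript and its length for each of 34306 genes. Of 53 samples listed, 24 form the later deposit, whose names the 12 columns match as a set, with 0 columns of other samples. RPKM times length gave whole reads, within 0.02 reads, for 233410 of 233410 positive values.

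The main test was limma 3.58.1 (R 4.3.3, two-sided, with its variance trend) on log2(RPKM + 1), with a mean for each group of the 12 libraries. It covered the 11654 genes that reached 1 RPKM in 2 libraries. The fit had 4 residual and 3.02 prior degrees of freedom. Values of p were adjusted by Benjamini-Hochberg over all tested genes, with calls at an adjusted p under 0.05. The fit was tested on simulated data. On the log2(RPKM + 1) scale the change of low genes is understated. The genes described and all gene lists were chosen with earlier results of these data known. Named genes were the 10 largest changes called in each direction, the 3 largest of single-library pairs, the 3 highest and lowest levels, a fixed set of landmark proteins, and the 3 most correlated other genes. Alternatives covered the pseudocount, filter, scaling, length trend, limma voom, the libraries fitted, the replicate block and each library left out. Protein sequences, samples of the first deposit and comparisons with cardiomyocyte TRAP were not analysed here.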

Additional observations from a re-analysis of the deposited data

Results flagged for a closer look

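Of the 75 tested Mrp genes, 54 were higher in TRAP than in input in all 5 CAG pairs (20.7% of all tested genes were), and 46 of these were lower in TRAP in the Tie2 pair, as were 1067 of the 11654 tested genes (9.16%). That difference in sign between the CAG pairs and the Tie2 pair is how the 46 genes were picked. The sham and band pairs were formed by like library number, and the labels state no pairing. With 1 Tie2 library a side the difference was not tested.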

How the results depend on the processing

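The number of Mrp genes called in TRAP against input ranged from 29 to 36 after sham when each library was left out in turn (49 with all), 29 being without sham input library 1, and from 37 to 56 after banding (52 with all). With only the groups compared in the fit, 32 were called after banding, beside 8.03% of all tested genes called higher. In that setting 1 Mrp gene (Mrpl39, lower) was called in band against sham input, beside 5.66% of all tested genes called lower. Band against sham in TRAP RNA, 1 call as reported, gave 2 with a filter of 5 RPKM, 2 with the length trend removed, 0 with only the groups compared, and 0 to 17 when a library was left out. The change of the ratio with banding gave 0 to 1 when a library was left out (Mrpl32 or Mrps34, without either band TRAP library). No other count of genes called in both directions together moved by more than 1.5 times. Of genes called lower in TRAP after banding, 0 as reported, there were 3 without band TRAP library 1 (Mrpl1, Mrpl47 and Mrpl50) and 1 (Mrps36) with quantile normalization, with the length trend removed and without mitochondrial reads. Quantile normalization moved the calls over all tested genes after sham from 15.1% higher and 24.5% lower to 17.6 and 15.9%, and rescaling without abundant genes to 10.7 and 32.6%. In all, 26 genes after sham and 29 after banding were called higher in every setting. How many of all tested genes were called in every setting was not counted. The share of all tested genes called also moved when a library was left out, so the ranges of Mrp counts are not particular to Mrp genes. The counts above genes of like length (64, 65, 62 and 0) did not change with a window of 25% in place of 10%. Of 714 values of named genes under an alternative, 659 kept their side of the threshold, 43 lost a call, 12 gained one and 0 turned their direction with a call. With the replicate number as a block, 47, 48, 0, 1 and 0 Mrp genes were called in the 5 comparisons, in the order sham, band, input, TRAP and change of ratio. In that fit 13.7% of all tested genes were called higher in TRAP than in input after sham and 15.0% after banding. The labels state no pairing, and the correlations of like-numbered deviations, from -0.434 to 0.11, did not show one. With 2 libraries a group, changes much under 1 on the log2 scale could be missed, and a lone library left in a group was assumed to vary like the others.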

Other observations

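The 3 other genes whose log2(RPKM + 1) followed the mean of the Mrp genes most closely over the 12 libraries were Mcee, of propionate breakdown in mitochondria (r = 0.990), Nfs1, the sulphur donor for iron-sulphur clusters (0.987), and Snrpn, of the splicing machinery (0.986). The 12 points share 8 conditions, and the Tie2 TRAP library lies far from the others. Mcee stood at 212 and 229 RPKM in the sham input libraries, 396 and 385 in sham TRAP and 73.9 in Tie2 TRAP. Among Mrp genes themselves, the correlation with their mean ran from 0.16 (Mrpl1) to 0.990 (Mrpl41).

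Between the band TRAP libraries, 8 Mrp genes stood higher in library 1 by more than 0.5 on the log2 scale, Mrpl1, Mrpl13, Mrpl32, Mrpl35, Mrpl47, Mrpl48, Mrpl50 and Mrps30, and 1, Mrps34, stood lower. Mrpl1 was read at 3.002 and 0.851 RPKM, from 405 and 144 reads, and Mrpl47 at 5.15 and 2.13 RPKM.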
